A study of Homo sapiens with 42 samples.

Results

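JTE-607 is a small-molecule prodrug whose acid form blocks CPSF73, and the data described here are the poly(A) mRNA libraries of K562 cells treated with 5 μM JTE-607 for 6 h (JTE 6h) set against those of untreated cells (CTRL). K562 is an established human line from a patient with chronic myeloid leukaemia in blast crisis, and it depends on the BCR-ABL1 kinase. The 6 libraries, 3 biological replicates per group, were chosen by their labels alone and are 6 of 42 in the series, and 6 of 27 that hold mRNA. The CTRL libraries are a single untreated set for every time point, so time in culture and the compound cannot be told apart. Libraries of cells given JTE-607 for 1 h or 18 h (JTE 1h, JTE 18h) or 1 μM imatinib, a BCR-ABL1 inhibitor, for 6 h (IM 6h) serve only for comparison, as do nuclear RNA libraries of untreated cells and of cells given JTE-607 for 1 h. All groups are the same cell line and carry no genetic change made for the study.

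Most human pre-mRNAs are cut a short way past a hexamer, AAUAAA or a relative of it, and a poly(A) tail is then added. CPSF73, encoded by CPSF3, is the nuclease that makes this cut, and the exonuclease that ends transcription enters at the cut end. When the cut is not made, RNA polymerase II can run on into the sequence, and into the genes, that lie downstream. Replication-dependent histone mRNAs are cut by the same nuclease in another complex and normally receive no poly(A) tail, and U snRNAs are cut by a related nuclease in the Integrator complex.

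Total counts per library ran from 16971725 to 21826935, and 18095 genes passed the filter on low counts. Levels are given in counts per 1000000 counts (CPM). All 13 genes that mark K562 cells were tested and none was called (2 at an unadjusted p under 0.05, 0 by DESeq2), with a median log2 fold change of 0.02. Of the markers of other blood cells, 7 of 13 myeloid genes passed the filter, the 13 summing to 19.6 to 39.8 CPM in CTRL and 20.7 to 39 CPM in JTE 6h, and 3 of 13 lymphoid genes, the 13 summing to 5.51 to 6.69 and 4.04 to 6.51 CPM. 1 of the myeloid and 4 of the lymphoid genes had no count in any of the 6 libraries. A gene was called if its edgeR quasi-likelihood p, adjusted by Benjamini-Hochberg, was under 0.05 and its log2 fold change was above 0.6 or below -0.6.

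After 6 h of JTE-607, 2388 genes were called, which is 13.2% of those tested. 1217 genes (6.73%) were higher and 1171 genes (6.47%) were lower, while the median log2 fold change over all tested genes was 0.03. In 1182 of the higher and 1130 of the lower genes the 3 treated libraries did not overlap the 3 CTRL libraries, as in 5416 (29.9%) of all tested genes. With only the libraries of these groups in the fit, 773 genes were higher and 820 lower. The rises and the falls lay at different levels of expression. Among the higher genes 1069 (87.8%) had a mean of under 10 CPM over the 6 libraries, against 635 (54.2%) of the lower genes and 51.8% of all tested genes. The rises were also the larger changes, since 591 higher genes passed a log2 fold change of 2 and 83 lower genes passed -2. Of the 2220 genes with a mean of at least 100 CPM, 13 were higher and 24 lower.

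Among called genes with a symbol, without overlap and with a mean of at least 5 CPM in the higher group, the largest rise was that of TSPOAP1 (ENSG00000005379, hg38 chromosome 17, 58301228 to 58328760, minus strand), which encodes a binding partner of the mitochondrial translocator protein. Its level was 2.54, 1.52 and 2.51 CPM in the CTRL libraries and 332, 314 and 275 CPM in the JTE 6h libraries. It thus went from a barely expressed gene to one of the 13 higher genes with a mean above 100 CPM, and the groups stood far apart (edgeR log2 fold change 7.13 with an SE of 0.32, adjusted p 9.91e-13). TSPOAP1 starts 2124 bases past the 3′ end of MIR142HG, the host transcript of miR-142, on the same strand. MIR142HG itself was at 12.3, 5.34 and 10.7 CPM in CTRL and at 15.6, 15 and 6.13 CPM in JTE 6h, groups that overlapped (edgeR log2 fold change 0.37 with an SE of 0.42, adjusted p 0.629). Per kilobase of exon, TSPOAP1 rose from a mean of 0.193 to 27 CPM, while MIR142HG had means of 5.81 and 7.53 CPM. Both genes overlap TSPOAP1-AS1 on the other strand, so that reads from shared exonic sequence cannot be assigned with certainty.

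A pair of amine oxidase genes rose in the same way. AOC2 and AOC3, whose products oxidise primary amines, follow PSME3, a proteasome activator subunit, on the plus strand of chromosome 17. AOC2 starts 842 bases past the end of PSME3, and AOC3 starts 477 bases past the end of AOC2 and 7426 bases past that of PSME3. AOC2 was at 1.05, 1.10 and 1.84 CPM in CTRL and at 16.1, 19.1 and 31.6 CPM in JTE 6h (edgeR log2 fold change 4.07 with an SE of 0.39, adjusted p 7.96e-08). AOC3 was at 0.496, 0.210 and 0.781 CPM in CTRL and at 17.4, 18.8 and 39.4 CPM in JTE 6h (edgeR log2 fold change 5.67 with an SE of 0.56, adjusted p 1.64e-07). Both were far higher in every treated library, and for both the third treated library was the highest. PSME3 did not pass the test, with means of 403 ± 34.5 CPM in CTRL and 317 ± 75.8 CPM in JTE 6h (SD, n = 3), an edgeR log2 fold change of -0.35 with adjusted p 0.155.

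Most of the other genes among the 15 largest rises were also at low levels in CTRL. MGAM, an intestinal enzyme that digests starch, was at 0.0551, 0.0524 and 0.167 CPM in CTRL, which is 1 to 3 read pairs per library, and at 3.53, 4.21 and 10.9 CPM in JTE 6h. The ratio of its summed counts was 68.8, with a 95% counting interval of 29.2 to 213, and it overlaps 4 other annotated genes. COL7A1, the collagen of the fibrils that anchor skin, was at 0.0551, 0.157 and 0.557 CPM in CTRL and at 5.08, 6.15 and 17.0 CPM in JTE 6h (log2 fold change 5.18, SE 0.59). BAAT, the liver enzyme that joins bile acids to amino acids, was at 0.441, 0.367 and 1.11 CPM in CTRL and at 13.6, 11.4 and 24.7 CPM in JTE 6h (log2 fold change 4.69, SE 0.43). PYGM, the muscle glycogen phosphorylase, was at 0.882, 1.26 and 0.948 CPM in CTRL and at 5.70, 7.0 and 36.4 CPM in JTE 6h (log2 fold change 3.99, SE 0.58). In each of these genes all treated libraries lay above all CTRL libraries, and the third treated library was the highest. TACR2, ZNNT1, MYH15, ZDHHC11, MPIG6B, IMPG2, SSH3 and BNIPL complete the group, with log2 fold changes between 3.91 and 4.76. ZDHHC11 begins inside the 3′ end of BRD9 on the same strand. In 14 of the 15 genes the CTRL mean was under 2 CPM, and 14 of the 15 are protein-coding.

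**Figure D1:**
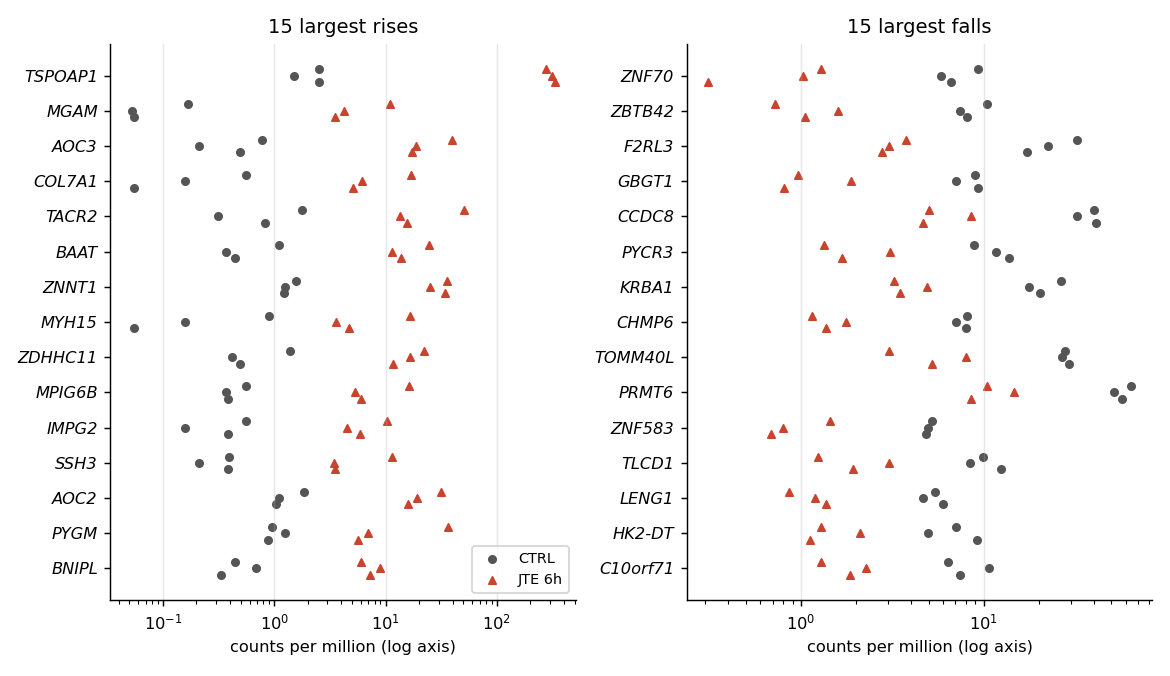
CPM per library on a log axis for the 15 largest rises (left) and the 15 largest falls (right) among called genes with a symbol whose groups did not overlap and reached a mean of 5 CPM on the higher side. Grey circles are the 3 CTRL libraries and red triangles the 3 JTE 6h libraries. The treated libraries of the risers lie 15 to 140-fold above CTRL by the fitted change, with the third library highest in 13 of 15 genes, and those of the fallers lie 4.55 to 8.03-fold below it, with the second library highest in 11 of 15.

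Of these 15 genes, 10 start no more than 10000 bases downstream of a gene on their own strand that has a mean of at least 10 CPM, as do 12.0% of all tested genes. That mean is over the groups together, and the CTRL means of MIR142HG and AOC2 were 9.45 and 1.33 CPM. With a CTRL mean of at least 10 CPM asked of the upstream gene, a rule added after seeing the data, 9 of the 15 remained, AOC3 through PSME3. The last 30 bases of these upstream genes are printed because they hold the site near which the upstream transcript would normally be cut. Each sequence is hg38, 5′ to 3′ on the gene's strand, and ends at the annotated 3′ end. Capitals mark AATAAA or ATTAAA, the common forms of the poly(A) signal. The ends of ZNF706, which lies 8249 bases before ZNNT1, and of MRPL50, before BAAT, are not shown.

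MIR142HG, before TSPOAP1 (chr17:58330884-58330913, minus strand): ccaatgctAATAAAgactggactgtgcttc
PSME3, before AOC2 (chr17:42843729-42843758, plus strand): gaAATAAAgtttcctcatcttccaccttgc
AOC2, before AOC3 (chr17:42850678-42850707, plus strand): tgtaatttatAATAAAaagtattagaggaa
UQCRC1, before COL7A1 (chr3:48599002-48599031, minus strand): gtgaccaccAATAAAatcctctgctgagaa
SENP7, before IMPG2 (chr3:101324205-101324234, minus strand): tgttagaAATAAAtttccagttgtatgctg
ANKRD13D, before SSH3 (chr11:67302456-67302485, plus strand): gagatggaAATAAAgagactgtcgcagcag
SF1, before PYGM (chr11:64764606-64764635, minus strand): ttgAATAAAagagcagtgtggttttctggg
PRUNE1, before BNIPL (chr1:151035684-151035713, plus strand): tgttatactATTAAAtaattttttcctgtt

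All of these ends but that of PRUNE1 hold AATAAA on the transcribed strand, and PRUNE1 has ATTAAA. Over all 18095 tested genes the share with AATAAA in the last 30 bases was 41.8%, and 10.7% had ATTAAA without it. Over the 179 genes that lie before a weakly expressed tandem gene called higher (defined in the next paragraph), the shares were 40.2% and 14.5%, against 48.4% and 12.0% for the 250 that lie before one not called higher. The distances from the upstream end to the gene start were 477 to 4309 bases for the 8 pairs printed. The upstream genes themselves were not called, apart from AOC2, with log2 fold changes between -0.35 and 0.37.

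The same comparison was then made for all weakly expressed genes, by their position. Tested genes with a mean under 10 CPM that overlap no annotated gene were classed by how far their start lies past the nearest upstream gene of the same strand whose mean is at least 10 CPM. Of the 299 genes within 5000 bases, 132 (44.1%) were higher and 16 (5.35%) lower, with a median log2 fold change of 1.09. Of the 143 genes at 5000 to 10000 bases, 51 (35.7%) were higher and 7 (4.90%) lower (median 0.66). Of the 538 genes at 10000 to 50000 bases, 85 (15.8%) were higher and 38 (7.06%) lower (median 0.07). The 1123 genes with no such gene within 50000 bases on either strand gave 48 (4.27%) higher and 38 (3.38%) lower (median 0.06), beside 11.4% and 6.78% for all 9365 genes under 10 CPM. The share of higher genes thus fell with distance. The filter on low counts used the treated libraries as well, so a gene without counts in CTRL could enter a class by rising. A gene silent in all libraries could not enter. The shares of higher genes and the medians may be raised by this. The same rule held for every class, and entry by CTRL counts alone was not tested.

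Each treated library showed the order of the first 3 classes. Relative to the CTRL mean, on the log2(CPM + 0.5) scale, the median of the genes within 5000 bases was 0.47, 0.53 and 0.83 in the JTE 6h libraries, and 0.00, -0.10 and 0.08 in the CTRL libraries. The genes without an expressed neighbour had medians of 0.06, -0.02 and 0.03 in the JTE 6h libraries. The groups did not overlap for the first class, and the third treated library was again the highest. Without JTE 6h replicate 3 the fitted median within 5000 bases was 0.90 and at 5000 to 10000 bases 0.45. Among all 1217 higher genes this library held the highest value in 63.4%, against 37.5% of all tested genes.

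These values differed with the level asked of either partner. When the upstream gene had to reach a mean of 50 CPM, 90 of 173 genes (52.0%) within 5000 bases were higher, with a median of 1.5. When the downstream gene had to hold at least 50 counts on average, 38 of 99 genes (38.4%) were higher and 12 (12.1%) lower, and the median was 0.40; at 5000 to 10000 bases it was -0.06. The medians were thus lower among genes with more counts. Of all higher genes, 209 had at most 3 counts in every CTRL library.

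A further class faces an expressed gene tail to tail. The 3′ ends of both genes lie within 10000 bases of each other on opposite strands, and since the counting did not use strand, RNA antisense to them is counted as theirs. Of 381 such genes 87 (22.8%) were higher and 28 (7.35%) lower, with a median log2 fold change of 0.31. Leaving out the 65 that also lie downstream of a same-strand gene within 10000 bases gave 66 of 316 (20.9%) higher and a median of 0.26. Without JTE 6h replicate 3 the median of the 381 was 0.09. Of the 103 of them with at least 50 counts on average, 16 (15.5%) were higher and 17 (16.5%) lower, with a median of -0.05.

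**Figure D2:**
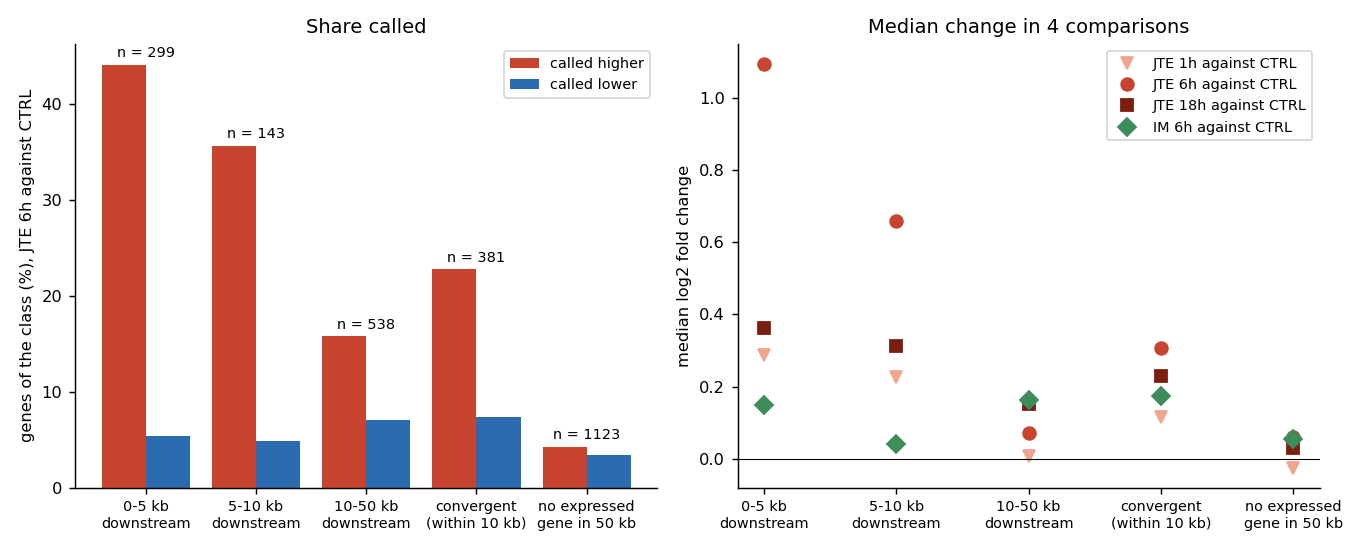
Weakly expressed genes (mean under 10 CPM, overlapping no gene) by their position relative to genes with a mean of at least 10 CPM. The filter that let genes into the classes used the treated libraries as well as CTRL. The left panel gives the percentage called higher (red) and lower (blue) at JTE 6h against CTRL, with the number of genes above the bars; the right panel gives the median log2 fold change of each class for JTE 1h, JTE 6h, JTE 18h and IM 6h, all against the same CTRL libraries. The share of higher genes falls from 44.1% within 5000 bases to 4.27% for genes without an expressed neighbour, and within 10000 bases the JTE 6h median is the highest of the 4 comparisons. The mean levels that set the classes are over the CTRL and JTE 6h libraries, not those of the other comparisons.

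Of the 442 genes within 10000 bases, 183 were higher, and they follow 179 different upstream genes. Of those upstream genes 9 were lower and 0 were higher by edgeR (13 at an unadjusted p under 0.05, 0 by DESeq2), and their median log2 fold change was -0.03. For comparison, 6.15% of all protein-coding genes with a mean of at least 10 CPM were lower and 1.25% higher, so few calls are usual at such levels. The 8 tandem genes with the largest fitted changes were nearly silent in CTRL. IQCA1L, which starts 2341 bases past ABCF2, had no count in CTRL and 0.62, 1.02 and 3.78 CPM in JTE 6h. IQCN, which starts 5251 bases past JUND, was at 0.110, 0.105 and 0.111 CPM in CTRL and at 2.36, 3.24 and 6.27 CPM in JTE 6h, a ratio of summed counts of 36.2 with a 95% counting interval of 16.4 to 99.7. RSPH6A, a sperm flagellum gene, starts 91 bases past SYMPK, which encodes the scaffold protein of the cleavage complex, and had at most 1 count per CTRL library and a mean of 1.72 CPM in JTE 6h. PKMP3, CYP26C1 and GRM2 also had no count in CTRL. Without JTE 6h replicate 3 neither CYP26C1 nor GRM2 was called, and GRM2 was also lost without any one of the CTRL libraries (edgeR adjusted p up to 0.0689 and 0.146).

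Most of the genes with the largest falls were short. All were expressed in CTRL, which the rule of 5 CPM in the higher group requires of a fall. ZNF70, a zinc finger gene, went from 6.61, 5.82 and 9.37 CPM in CTRL to 0.310, 1.02 and 1.29 CPM in JTE 6h, the largest fall in the group (edgeR log2 fold change -3.0 with an SE of 0.33, adjusted p 5.06e-07). F2RL3, which encodes the thrombin receptor PAR4 of platelets, went from 17.3, 22.5 and 32.2 CPM to 2.79, 3.02 and 3.74 CPM (edgeR log2 fold change -2.91 with an SE of 0.32, adjusted p 5.12e-07). Both groups of libraries were well separated in these genes. CCDC8, a single-exon gene whose product belongs to the 3M complex, went from 41, 32.4 and 40.1 CPM to 4.65, 8.48 and 5.03 CPM (edgeR log2 fold change -2.64 with an SE of 0.22, adjusted p 1.09e-08). PRMT6, a single-exon gene for an arginine methyltransferase, went from 57.5, 51.5 and 64.2 CPM to 8.55, 14.7 and 10.4 CPM (edgeR log2 fold change -2.36 with an SE of 0.16, adjusted p 6e-10). TOMM40L, a relative of the mitochondrial import channel, went from 29.3, 27 and 27.8 CPM to 5.21, 7.97 and 3.02 CPM (log2 fold change -2.38, SE 0.24). In all of these the treated libraries lay below every CTRL library by several fold.

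ZBTB42, GBGT1, PYCR3, KRBA1, CHMP6, ZNF583, TLCD1, LENG1, HK2-DT and C10orf71 make up the rest of the 15, with log2 fold changes from -2.96 to -2.19. PYCR3 makes proline, CHMP6 is an ESCRT-III subunit, and HK2-DT is a noncoding RNA that overlaps HK2. 13 of the 15 span less than the median of all tested genes, 19885 bases, 6 have at most 2 annotated exons, and in 14 the GC content of the exons is above the median of 47.8%. 2 of the 15 start within 10000 bases downstream of an expressed gene. These features were compared across all genes.

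Among the 8178 protein-coding genes with a mean of at least 10 CPM, 102 (1.25%) were higher and 503 (6.15%) lower. Over 4 classes of equal size by genomic length, the share of lower genes was 12.5% in the shortest (up to 15171 bases), then 7.0%, 3.38% and 1.76%. Over 4 classes by GC content of the exons it was 2.29% in the lowest (up to 41.4%), then 3.04%, 6.90% and 12.4%. It was 18.4% for the 152 genes with a single exon, 10.2% with 2 to 5 exons, 6.19% with 6 to 15 and 3.64% with more than 15. The share of higher genes fell with GC content, at 1.71%, 1.27%, 1.17% and 0.83%, on 17 to 35 genes per class. Over the length classes it was 1.22%, 0.93%, 1.71% and 1.12%, without an order. By exon number it was 0%, 1.78%, 1.45% and 0.79%.

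Length and GC content are related, so the genes were also split by both medians. Of the 2620 short genes of high GC content 12.6% were lower, against 4.56% of the 1469 short genes of low GC content, 4.29% of the 1468 long genes of high GC content and 1.60% of the 2621 long genes of low GC content. Short genes and genes of high GC content thus each had the higher share on both sides of the other split. Median log2 fold changes were -0.09 in the first and 0.07 in the last of these classes. For IM 6h against the same CTRL libraries, the shares of lower genes in these classes were 8.09%, 5.79%, 7.29% and 4.43%. Library preparation can depend on GC content and length, and its part in these values was not tested.

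**Figure D3:**
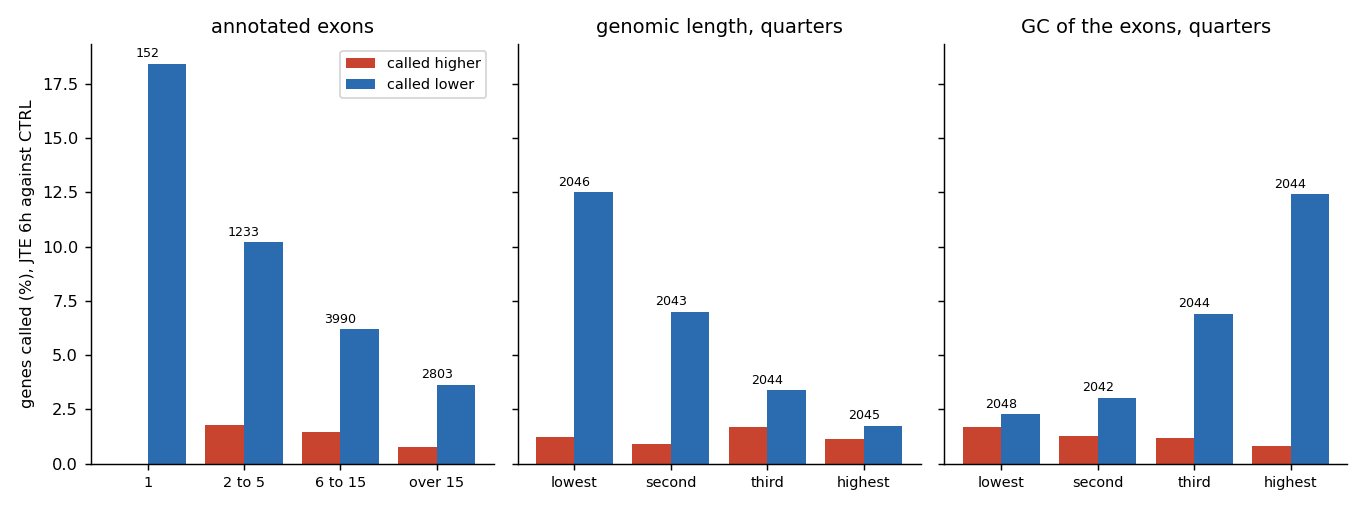
Percentage of protein-coding genes with a mean of at least 10 CPM called higher (red) and lower (blue) at JTE 6h against CTRL, by the number of annotated exons (left) and by 4 classes of equal size of genomic length (middle) and exon GC content (right), with the number of genes above the bars. The share of lower genes falls from 18.4% to 3.64% with exon number and from 12.5% to 1.76% with length, and rises from 2.29% to 12.4% with GC content, while the share of higher genes stays under 2%.

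The annotated 3′ ends of these protein-coding genes differed as well. AATAAA stood in the last 30 bases of 188 of the 503 lower genes (37.4%), of 58 of the 102 higher genes (56.9%) and of 3903 of the 7573 genes not called (51.5%). Neither AATAAA nor ATTAAA was found in 50.3%, 34.3% and 35.4% of them. The mean GC content of the 40 bases past the annotated end was 46.0% for the lower, 37.7% for the higher and 40.5% for the uncalled genes. An annotated end need not be the end used in K562 cells, and genes of high GC content have fewer AT-rich hexamers, so these shares describe the gene classes only.

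By gene type, 12.9% of 2414 lncRNA genes were higher and 8.08% lower, against 5.68% and 6.73% of 12704 protein-coding genes and 2.95% and 1.70% of 1760 processed pseudogenes. Among genes named as divergent transcripts (238 tested), 17 were higher and 34 (14.3%) lower, with a median log2 fold change of -0.29. Genes named as antisense transcripts (510 tested) gave 47 (9.22%) higher and 53 (10.4%) lower, with a median of -0.02. Over all tested genes the shares were 6.73% higher and 6.47% lower. IDI2-AS1, which starts 2730 bases past GTPBP4, had 1 count over the 3 CTRL libraries and 0.496, 1.08 and 1.05 CPM in JTE 6h, a ratio of 47.1 with a 95% counting interval of 8.06 to 1900.0. It overlaps IDI1 and IDI2 on the other strand, from which the counting could not part it. Of the annotated readthrough genes, which join exons of neighbouring genes, 41 of 471 were tested. Of these 7 (17.1%) were higher and 1 (2.44%), POLR2J3, was lower, with a median of 0.12. Such genes overlap the genes they join, as SENP3-EIF4A1 overlaps SENP3 and EIF4A1, so their counts do not measure joined transcripts alone. Of the 6 fits that left out 1 library, P2RX5-TAX1BP3 stayed called in 1 and SENP3-EIF4A1 in 4. POLR2J3 was not called without CTRL replicate 1 or JTE 6h replicate 1 or 3 (edgeR adjusted p up to 0.142). ATF7-NPFF, with means of 0.125 CPM in CTRL and 0.622 CPM in JTE 6h, had the largest change of them (edgeR log2 fold change 2.25, adjusted p 0.0335), and it was not called without JTE 6h replicate 2 or 3 or CTRL replicate 1 or 3 (adjusted p up to 0.133).

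Genes of the pathway that the compound targets came next. CPSF3 was at 156, 163 and 136 CPM in CTRL and at 203, 175 and 153 CPM in JTE 6h, overlapping groups that did not pass the test (edgeR log2 fold change 0.22 with an SE of 0.10, adjusted p 0.112). CES1, the esterase that converts JTE-607 to its acid in other cells, had 0 or 1 count in each of the 6 libraries and at most 5 counts in any of the 27 mRNA libraries, too few to test. Of the 20 genes of the cleavage and polyadenylation machinery, 3 were higher and 1 lower, with a median log2 fold change of 0.22. The higher genes were PCF11, CSTF3 and RBBP6.

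PCF11, a cleavage factor that also takes part in termination, was at 112, 88.1 and 108 CPM in CTRL and at 272, 257 and 298 CPM in JTE 6h (edgeR log2 fold change 1.42 with an SE of 0.12, adjusted p 7.23e-09). CSTF3, which encodes CstF77, was at 49.5, 53.1 and 58.4 CPM in CTRL and at 151, 122 and 139 CPM in JTE 6h (edgeR log2 fold change 1.36 with an SE of 0.10, adjusted p 2.99e-09). RBBP6, a ubiquitin ligase that activates the cleavage complex, was at 166, 128 and 136 CPM in CTRL and at 339, 340.1 and 358 CPM in JTE 6h (edgeR log2 fold change 1.27 with an SE of 0.13, adjusted p 1.51e-07). All treated libraries lay at about 2 to 3 times the CTRL level. PCF11 and RBBP6 stand behind TSPOAP1 as the next largest rises among genes with a mean of at least 100 CPM. As background, the mRNAs of PCF11, CSTF3 and RBBP6 are known to have poly(A) sites inside introns that compete with the full-length form. Counts per gene do not separate those forms. CPSF4, which helps to bind the AAUAAA signal, fell from 57.9, 52.6 and 55.9 CPM to 29.2, 39 and 30.9 CPM (edgeR log2 fold change -0.75 with an SE of 0.10, adjusted p 1.23e-05).

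Of 16 termination factors 1 (6.25%) was lower and none higher, against 6.47% and 6.73% of all tested genes, with a median of -0.04. The lower gene was TOX4, part of a phosphatase complex on the polymerase. TOX4 had a log2 fold change of -0.65 and was not called without JTE 6h replicate 3 (-0.54). Of 30 elongation factors 2 (6.67%) were lower, a share close to that of all tested genes, with a median of 0.03. CDK9, the kinase that releases paused polymerase II, fell from 47.2, 42.9 and 45.7 CPM to 12.0, 21.2 and 17.0 CPM (edgeR log2 fold change -1.43 with an SE of 0.13, adjusted p 3.57e-08), with no overlap. PAF1 had a log2 fold change of -0.68, and -0.52 without JTE 6h replicate 3, which is not called.

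Of the 65 replication-dependent histone genes 43 were tested, with a median of 0.01. Of these 7 (16.3%) were higher and 1 (2.33%) lower, against 6.73% and 6.47% of all tested genes. H4C8, the most abundant of the higher genes, had means of 31.5 ± 2.83 CPM in CTRL and 57.4 ± 9.31 CPM in JTE 6h (SD, n = 3; log2 fold change 0.86, SE 0.16). H4C3 was at 0.882, 0.471 and 0.948 CPM in CTRL and at 2.73, 2.33 and 2.30 CPM in JTE 6h (edgeR log2 fold change 1.67 with an SE of 0.31, adjusted p 0.0003). H2BC9 (1.24) and H2BC6 (0.78) also rose on the log2 scale, and H2BC8 fell (-0.82). These and H4C8 fall outside the rule for named genes and were chosen after their values were seen. The remaining higher members, H2BC14, H3C6 and H2AC12, had CTRL means of at most 0.54 CPM. H3C6 was not called without CTRL replicate 3 or JTE 6h replicate 1, nor H2AC12 without JTE 6h replicate 1 or 2 or CTRL replicate 1 or 3 (adjusted p up to 0.0668 and 0.0944). Poly(A) selection leaves out most histone mRNA, so these levels are those of the selected fraction.

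Signalling and haematopoietic genes were also counted by list. Of 27 immediate early genes, which respond within minutes to growth signals, 2 (7.41%) were lower, with a median of -0.09. That share is close to the 6.47% of all tested genes. EGR1 was at 40.9, 159 and 110 CPM in CTRL and at 41.8, 16.8 and 18.2 CPM in JTE 6h, so that the groups overlapped (edgeR log2 fold change -2.01 with an SE of 0.66, adjusted p 0.0378). EGR1 was no longer called after leaving out replicate 2 or 3 of either group, with values between -2.56 and -1.58 over the 6 fits and adjusted p up to 0.157. JUND, an AP-1 subunit, fell from 107 ± 13.9 to 63.9 ± 4.84 CPM (SD, n = 3), an edgeR log2 fold change of -0.75 with adjusted p 0.00142. In IM 6h, measured against the same CTRL libraries, the list had a median of -0.80 and EGR1 a log2 fold change of -4.24. Of 10 STAT5 targets, ID1 alone (10.0%) was lower (log2 fold change -0.93). The call of ID1 did not hold without CTRL replicate 2 or JTE 6h replicate 2 or 3 (edgeR adjusted p up to 0.187). The list median was -0.19 against -2.14 in IM 6h.

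Of 15 haematopoietic transcription factors 1 (6.67%) was lower and none higher, a share of lower genes close to that of all tested genes. The called gene was LYL1, a factor of blood stem and progenitor cells. It fell from 77.9, 69.5 and 101 CPM to 18.4, 29.6 and 23.6 CPM (edgeR log2 fold change -1.79 with an SE of 0.18, adjusted p 2.01e-07), and every treated library lay far below every CTRL library. Of 9 megakaryocyte genes tested, 2 (22.2%) were lower, against 6.47% of all tested genes, and the list had a median of -0.48. In it 7 values were negative and 2 positive, up to 1.06. MPIG6B, a megakaryocyte and platelet receptor gene outside this list, was among the largest rises (log2 fold change 4.38). Against the CTRL mean, on the log2(CPM + 0.5) scale, the median of the list was -0.56, -0.27 and -0.25 in the JTE 6h libraries and -0.18, -0.02 and 0.20 in the CTRL libraries, without overlap. The lower genes were F2RL3 (above) and GP6, the collagen receptor of platelets, with means of 9.63 ± 3.52 CPM in CTRL and 2.96 ± 0.08 CPM in JTE 6h (SD, n = 3), an edgeR log2 fold change of -1.70 with adjusted p 0.00177. None of the 21 erythroid genes was called (median 0.08), nor was any of the 19 genes of haem synthesis and iron handling (median 0.02), with 0 calls by DESeq2 and none at an unadjusted p under 0.05 in both lists. Their medians in IM 6h were 0.79 and 0.49.

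Lists of the cell cycle were counted in the same way. Of 32 DNA replication genes 5 were lower and none higher (15.6%, against 6.47% of all tested genes), with a median of -0.004. POLA2, a subunit of the primase complex, fell from 77.4, 64.8 and 53.8 CPM to 26.3, 39.7 and 18.3 CPM (edgeR log2 fold change -1.22 with an SE of 0.21, adjusted p 0.000125). RRM2, the regulated subunit of ribonucleotide reductase, fell from 198, 185 and 196 CPM to 113, 134 and 74.7 CPM (edgeR log2 fold change -0.85 with an SE of 0.15, adjusted p 0.000249). Neither gene showed overlap between groups. GINS4 (-0.92) and POLE (-0.62) also fell on the log2 scale, POLE no longer past the threshold without JTE 6h replicate 1 or 3 (-0.55 at the least), and the fifth was RFC5 (-0.60), named after its value was seen. Of 34 mitosis genes CDC25B (-1.0) and CENPA (-0.70) were lower (5.88%), a share close to that of all tested genes, and CENPA was not called without CTRL replicate 2 or JTE 6h replicate 3 (adjusted p up to 0.12). Of 25 genes of G1 and the entry into S phase, CCNE2, which encodes cyclin E2, rose from 16.3 ± 1.83 to 29.9 ± 1.83 CPM (edgeR log2 fold change 0.88, adjusted p 0.00055), and E2F4 fell (-0.68, or -0.58 without JTE 6h replicate 3, which is not called). These calls are 4.0% higher and 4.0% lower, below the shares of all tested genes.

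None of the 22 integrated stress genes was called by edgeR or DESeq2 (median -0.08, 2 at an unadjusted p under 0.05). Replicates lay far apart in this list. Its median against the CTRL mean, on the log2(CPM + 0.5) scale, was -0.52, 0.86 and -0.37 in the CTRL libraries and 0.48, -0.45 and -0.16 in the JTE 6h libraries. Of 18 p53 targets 1 was lower, TP53I3 (-0.79), and it was not called without CTRL replicate 3 or any of the JTE 6h libraries (adjusted p up to 0.269); K562 cells lack functional p53. HSF1, the master regulator of the heat shock response, fell from 59.2 ± 1.13 to 33.4 ± 7.41 CPM (SD, n = 3), an edgeR log2 fold change of -0.82 with adjusted p 2.69e-05, and DNAJB1 (-0.60) was the other lower gene of 15 in that list, no longer called without CTRL replicate 3 or JTE 6h replicate 1 (adjusted p up to 0.0778), nor with upper quartile scaling or a replicate block. BCL2L2, which encodes the survival factor BCL-w, fell from 34.1, 31.0 and 30.7 CPM to 14.9, 14.9 and 10.9 CPM (edgeR log2 fold change -1.24 with an SE of 0.14, adjusted p 8.74e-07) and was the single call among 15 BCL2 family genes. Lower genes made up 5.56% of the p53, 13.3% of the heat shock and 6.67% of the BCL2 family list, against 6.47% of all tested genes.

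Some large groups shifted by less than the threshold. Of 81 ribosomal protein genes 79 had positive values, with a median of 0.20; 33 of them passed an adjusted p of 0.05 without the fold threshold, all higher. Against the CTRL mean their median, on the log2(CPM + 0.5) scale, was -0.04 to 0.06 in the CTRL libraries and 0.15 to 0.28 in the JTE 6h libraries, without overlap. The 13 mitochondrially encoded mRNAs had a median of 0.23, but by library the values were -0.01, 0.37 and 0.26 in JTE 6h, the first of them inside the CTRL range of -0.04 to 0.06. The 84 tested subunits of the respiratory chain had a median of 0.19 (0.10 to 0.29 by JTE 6h library, -0.05 to 0.05 in CTRL). NDUFA9 (1.20) and NDUFA13 (1.27) were higher, NDUFA13 not without CTRL replicate 2 (edgeR adjusted p 0.0535). The counted level of NDUFA13 was low, with means of 0.892 CPM in CTRL and 2.15 CPM in JTE 6h, and the gene overlaps YJEFN3. Zinc finger genes went the other way, with 24 (5.23%) of 459 higher and 58 (12.6%) lower and a median of -0.06. Over all tested genes the shares were 6.73% and 6.47%. In all, 14 of the lists with 10 or more tested genes held no call by edgeR or by DESeq2, with medians from -0.11 to 0.23. Of their 328 entries 89 had an unadjusted edgeR p under 0.05, beside 5336 of all 18095 tested genes.

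**Figure D4:**
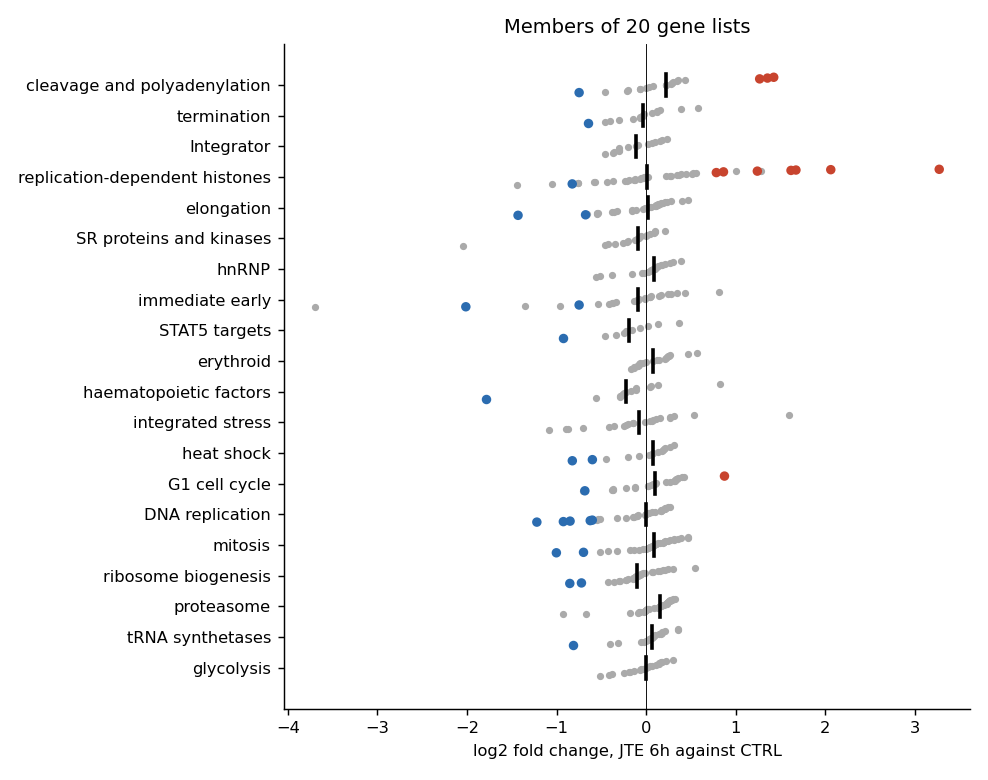
Log2 fold change of JTE 6h against CTRL for the tested members of 20 gene lists, 1 point per gene; red points were called higher, blue points lower and grey points not called, and black bars are list medians. The medians lie between -0.23 and 0.22, and the calls stand away from them, such as PCF11, CSTF3 and RBBP6 in the first list at 1.27 to 1.42.

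Genes with a mean of at least 100 CPM that were called are few enough to give as a group; they were singled out after their values were seen. Beside TSPOAP1, PCF11 and RBBP6, the higher ones were CBX5, KIAA1143, CCDC50, VAPB, ZNF638, RBM8A, YTHDC1, the noncoding RNA OIP5-AS1, the mitochondrial rRNA gene MT-RNR2 and the gene ENSG00000269028, at log2 fold changes of 0.60 to 0.91. By library ENSG00000269028 ran beside MT-RNR2, at 255, 236 and 319 CPM in CTRL against 13300, 12310 and 16720 CPM. Their log2 fold changes were 0.68 and 0.71, and whether reads were shared between these genes was not tested. Among the 24 lower ones, XRCC2, a homologous recombination factor, had the largest fall, from 158, 158 and 147 CPM to 41.5, 65.1 and 60.0 CPM (edgeR log2 fold change -1.47 with an SE of 0.14, adjusted p 7.16e-08). DFFA, the inhibitor of the caspase-activated nuclease, changed by -1.29, SMARCC2, a BAF chromatin remodelling subunit, by -1.04, NAT10, an RNA acetyltransferase, by -1.01 and MAVS, an adaptor of RNA sensing, by -0.99. In none of these 5 genes did the treated and CTRL libraries overlap.

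The other libraries of the series place these changes in time. Between JTE 6h and JTE 1h 1671 genes (9.23%) differed, or 800 with only the libraries of these groups in the fit, and between JTE 18h and JTE 6h 2431 genes (13.4%). All 15 of the largest rises were higher at 6 h than at 1 h (log2 differences of 2.26 to 6.74), and 14 of 15 were lower at 18 h than at 6 h. The exception was TSPOAP1, whose log2 fold change against CTRL was 3.81 at 1 h, 7.13 at 6 h and 6.70 at 18 h, and whose difference between 18 h and 6 h was -0.43 (edgeR adjusted p 0.198). AOC3 was at 1.96, 5.67 and 0.61 on the same scale, and its difference between 18 h and 6 h was -5.05 (edgeR adjusted p 1.45e-06). All 15 of the largest falls were lower at 6 h than at 1 h (-2.54 to -1.35), and 14 of 15 were higher at 18 h than at 6 h. These differences share the JTE 6h libraries that chose the genes, so some of their size comes from that choice. PCF11 stood at 0.90, 1.42 and 0.66 against CTRL, and was lower at 18 h than at 6 h by a difference of -0.76 (edgeR adjusted p 4.46e-05).

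For the class of genes within 5000 bases downstream of an expressed gene, the median log2 fold change against the same CTRL libraries was 0.29 at 1 h, 1.09 at 6 h and 0.36 at 18 h. For the replication-dependent histone genes it was 0.06, 0.01 and 1.15, and for the integrated stress genes, on which the CTRL libraries lay far apart, -0.07, -0.08 and -0.78. The tandem genes thus had their highest median at 6 h, and the histone genes at 18 h. The tandem class was set by mean levels over the CTRL and JTE 6h libraries, so the 6 h values helped to choose its members. How much this adds to the 6 h median was not tested. With at least 50 counts the 6 h median was 0.40, and the other times were not computed on that set.

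Imatinib at the same time point gave other changes. Between JTE 6h and IM 6h, 4310 genes (23.8%) differed, 1842 higher with JTE-607 and 2468 lower. All 15 of the largest rises were higher in JTE 6h than in IM 6h (3.04 to 7.03), and 14 of the 15 falls were lower. F2RL3 was low with both compounds, at -2.91 in JTE 6h and -1.89 in IM 6h, with a difference of -1.01 (edgeR adjusted p 0.0155). The doses, 5 μM and 1 μM, and the targets of these compounds differ.

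Nuclear RNA gave a view from separate libraries, with its own CTRL, after 1 h of JTE-607. There 7.0% of 21929 tested genes were higher and 1.51% lower. Of the 15 genes with the largest rises in mRNA at 6 h, 14 were tested in nuclear RNA and 13 were higher at 1 h: TSPOAP1 by 3.98, AOC3 by 3.46, BAAT by 3.09 and AOC2 by 1.43 on the log2 scale. MYH15 (0.42, edgeR adjusted p 0.688) did not pass, and MGAM was not tested. Of the 15 genes with the largest falls 4 were lower, ZNF70 (-0.65), ZBTB42 (-0.73), F2RL3 (-0.88) and KRBA1 (-0.70), and none was higher. The class within 5000 bases downstream had a median of 0.81 in nuclear RNA, against 0.01 for the genes without an expressed neighbour.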

How the data were processed

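Counts per gene for 27 poly(A) mRNA libraries and the nuclear RNA libraries were used as deposited. Per the methods, the authors trimmed and deduplicated read pairs with fastp without molecular identifiers, aligned them with STAR to hg38 (GRCh38.p14 in the submitters' processing notes), kept unique alignments with introns of at most 10000 bases, and counted read pairs over exons with featureCounts, naming no strand setting. The annotation release is not given in the sources used here.

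Genes passing filterByExpr were fitted with edgeR 4.0.16 (R 4.3.3; quasi-likelihood, robust, TMM) over all 27 mRNA libraries with 1 term per group, and p-values were adjusted by Benjamini-Hochberg over all 18095 genes. SE is the log2 fold change divided by the square root of F. CPM are counts per 1000000 of a library's total over the tested genes, scaled by its TMM factor. Counting intervals are exact 95% intervals of a ratio of summed counts and cover counting error only. Gene positions, 3′ ends and exon counts came from the coordinates given with the deposited counts, and sequences from hg38. Gene types and the mark of readthrough genes came from GENCODE 44, in which 57532 of 58243 gene identifiers were found. The 3′ end was the same in both for 46519 genes. DESeq2 1.42.0, other scalings, filters and fits without each library were alternatives. The fit was tested on simulated data.

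Named genes were the 15 largest rises and 15 largest falls among called genes with a symbol, a mean of 5 CPM in the higher group and no overlap, up to 4 called genes per list, and the 8 tandem genes with the largest changes, with their upstream genes. Members and lists were chosen with earlier results of these data known. Libraries with the same replicate number deviated together in JTE 6h and JTE 1h (r 0.65 to 0.80) and IM 6h (0.41 to 0.58). With JTE 18h this was weak (0.11 to 0.32), and JTE 18h replicate 3 reached 0.12 with JTE 6h replicate 1.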

Additional observations from a re-analysis of the deposited data

Results flagged for a closer look

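Effects that differed between times of treatment were picked out by a direct edgeR test. Between JTE 6h and JTE 1h 1671 genes differed, and between JTE 18h and JTE 6h 2431 genes. TSPOAP1 was higher at 6 h than at 1 h by a log2 difference of 3.32. MGAM was higher at 6 h than at 1 h (6.74) and lower at 18 h than at 6 h (-4.26), as was AOC3 (3.70 and -5.05). ZNF70 was lower at 6 h than at 1 h (-2.29) and higher at 18 h than at 6 h (2.18), as were ZBTB42 (-2.54 and 1.77) and F2RL3 (-2.12 and 1.64). These genes were chosen for their values at 6 h, which enter both differences.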

How the results depend on the processing

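All 15 largest rises and 15 largest falls remained called under each of 13 alternatives. The number of genes called was 2405 with RLE scaling, 2360 with upper quartile scaling, 2992 without the filter, 2465 with DESeq2, 2419 without genes over 1% of counts and 3268 without the fold threshold. With only the libraries of the groups compared, 773 genes were higher, and 800 differed between JTE 6h and JTE 1h; without the fold threshold 3938 differed between JTE 18h and JTE 6h. Leaving out 1 library gave 1891 (without JTE 6h replicate 3) to 2623 (without JTE 6h replicate 2) calls.

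Same-numbered JTE 6h and CTRL libraries did not deviate together throughout (r -0.10, -0.30 and 0.76). JTE 6h replicate 1 correlated best with CTRL replicate 2 (0.68) and JTE 6h replicate 2 with CTRL replicate 1 (0.70). The paper also lists 19031221 mapped reads for CTRL replicate 1 and 18333127 for replicate 2, totals that the deposited counts hold under numbers 2 and 1. The CTRL numbers 1 and 2 may thus be exchanged. With a replicate block on the numbers as labelled, which may then join unmatched libraries, 2775 genes were called, 1394 higher and 1381 lower. For JTE 6h against JTE 1h, JTE 18h and IM 6h the block gave 2072, 2958 and 4764 calls, under 1.5 times the counts without it. Same-numbered libraries deviated together with JTE 1h and IM 6h, but only weakly with JTE 18h. These fits also held the CTRL libraries under the numbers as labelled.

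The median log2 fold change within 5000 bases downstream was 1.498 with upstream genes of at least 50 CPM, 0.398 with at least 50 counts and 0.198 without an upper limit on the gene's level, and 1.066 with upstream genes of at least 10 CPM in CTRL, both chosen after seeing the data, and 0.895 to 1.294 without 1 library. At 5000 to 10000 bases it was -0.06 with at least 50 counts, 0.098 without the limit and 0.446 to 0.82 without 1 library. For convergent genes these values were -0.053, 0.031 and 0.087 to 0.386. For genes without an expressed neighbour it was 0.113 with upper quartile scaling and 0.003 to 0.072 without 1 library.

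Uncalled values near 0 changed sign. SIN3B, upstream of F2RL3, was at -0.001 with RLE scaling and DESeq2, -0.045 without the filter, -0.003 with the block, -0.014 without genes over 1% and -0.011 with only the 2 groups, and at -0.074 to 0.135 without 1 library. GFUS, upstream of PYCR3, was at -0.007, -0.009 (DESeq2), -0.051, -0.002, -0.019 and -0.016, and at -0.06 to 0.044. Without 1 library, MRPL50 ran from -0.215 to 0.035, SYMPK from -0.174 to 0.038 and EXOC6, upstream of CYP26C1, from -0.03 to 0.151. The cause was not tested.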

Other observations

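Genes of further lists were called singly, beside 6.73% higher and 6.47% lower over all tested genes. The interferon list had 5.56% higher, the microRNA hosts 3.85% higher and 7.69% lower, and the cytokine list 13.3% lower. IFI27, an interferon-induced gene, was the only one of 18 such genes called, with means of 0.491 ± 0.155 CPM in CTRL and 2.17 ± 0.634 CPM in JTE 6h (SD, n = 3). Among 26 host genes of microRNAs, MIR1915HG (-2.50) and MIR17HG (-1.21), which carries the miR-17 to miR-92a cluster, were lower on the log2 scale, and MIR600HG was higher (0.87). Of 15 cytokine and NF-κB genes, CXCL2 (-1.19) and CXCL3 (-1.05), both neutrophil attractants, were lower, with a list median of -0.31. Neither chemokine stayed called without single libraries, CXCL2 in 5 and CXCL3 in 4 of 6 fits.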
